A study of Rattus norvegicus with 24 samples.

Results

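The endoplasmic reticulum (ER) folds the proteins a cell secretes or places in its membranes, and the genes described here are 39 stress genes tied to that task and to amino acid supply, out of 30043 genes counted in rat lung. They were taken by name from a list, with no threshold on their values, and all 39 were found. The list was chosen with earlier results of these data known. The ER folding side has 20 genes, of which 14 encode chaperones and folding enzymes and 6 encode stress sensors and parts of the degradation machinery. The ATF4 side has 19 genes, of which 4 encode transcription factors and feedback proteins, 5 encode amino acid and one-carbon enzymes, 8 encode cytosolic tRNA synthetases and 2 encode the subunits of an amino acid transporter.

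When unfolded proteins build up in the ER, the sensors IRE1 (gene Ern1), ATF6 and PERK switch on chaperones, degradation factors and the transcription factor XBP1. PERK and other kinases, which sense amino acid shortage, haem shortage or double-stranded RNA, phosphorylate the translation factor eIF2, which slows protein synthesis but favours translation of ATF4. ATF4 then raises genes for amino acid synthesis, amino acid import and tRNA charging, and in lung the secretory alveolar type 2 cell and the antibody-secreting plasma cell are known for a large folding load.

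Lung tissue came from 24 male Fischer 344 rats (F344/DuCrl, 3 months old when bought), 6 in each of 4 groups, all kept in whole-body inhalation chambers over 29 weeks. The air group breathed air throughout. The silica group breathed crystalline silica (Min-U-Sil5) at 15 mg/m3 for 6 hours a day on 5 days of the third week, and air before and after. The smoke group breathed cigarette smoke for 3 hours on Tuesdays and Fridays, at 40 mg/m3 in the first week and at 80 mg/m3 later, with air in the third week. The combined group had the same silica week and the same smoke days, with smoke at 45 mg/m3 in the first week. The labels name no transgene or deletion. A piece of lung holds many cell types, so fewer cells of a type and less RNA per cell cannot be told apart in these data. In the main fit, p-values measure the spread between libraries within groups, pooled over all 4 groups. A library outside a comparison can therefore also change its p-value.

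Total counts ran from 21629 to 4687805 per library (median 2335358). The library smoke 2 was the shallowest: 36 of the 39 genes had 3 or fewer counts there and 18 had 0, so a gene at 3 counts would stand at 159 CPM. It stayed in the fits but is left out of the levels, ranges and statements on overlap, which for smoke rest on 5 libraries. Silica 4 had 280484 counts, so that 3 counts stand at 10.8 CPM there. It stayed in the silica levels and ranges, so in genes of low CPM an end of the silica range can rest on a few counts there. The library labelled silica 1 held the macrophage elastase gene Mmp12 at 3.20 CPM where the other silica libraries held at least 57.4, and the library labelled smoke 1 had 57.2 CPM, against 11.8 or less elsewhere in its group but for smoke 2. The deepest library, air 6, differed from the other air libraries by a chi-square of 14.7 to 24.4 per degree of freedom, against 1.91 to 8.42 among the other air libraries. Without air 6 the genes higher after both against air numbered 6 on the ER folding side and 9 on the ATF4 side, with 1 and 0 lower, and after silica 0 and 2. In that fit 1496 of all 13275 tested genes were higher and 1272 lower after both, and 222 were higher after silica. Labels were kept, and the number of genes called on each side is also given without silica 1, smoke 1 and smoke 2. Counts of smaller sets come from the main fit unless stated. CPM here are counts relative to the TMM-scaled library total, a change is a log2 fold change ± its standard error with n = 6 and 6, and "called" means an adjusted p under 0.05 in edgeR's quasi-likelihood test with Benjamini-Hochberg adjustment over 13322 genes.

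Combined exposure raised more genes than it lowered on both sides relative to air. Of the 20 ER folding genes 7 were higher and 1 lower (median change of the 20, 0.24), and of the 18 ATF4 side genes that could be tested 8 were higher and 0 lower (median 0.29). The share higher was 35.0% on the ER folding side and 44.4% on the ATF4 side, where 11.6% of all tested genes were higher, 10.8% were lower and the median change was -0.01. Because the genes were chosen with earlier results of these data known, these shares are not independent evidence. Without silica 1, smoke 1 and smoke 2 the counts were 10 higher and 1 lower on the ER folding side and 9 higher and 0 lower on the ATF4 side, beside 12.1% higher and 13.5% lower of all 13666 genes then tested. Silica alone had 0 and 1 genes called on the 2 sides and smoke alone had 0 and 0, as described further on. Chac1, a glutathione-degrading enzyme and ATF4 target, had 0 to 4 counts in every library and was the 1 gene not tested.

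**Figure D1:**
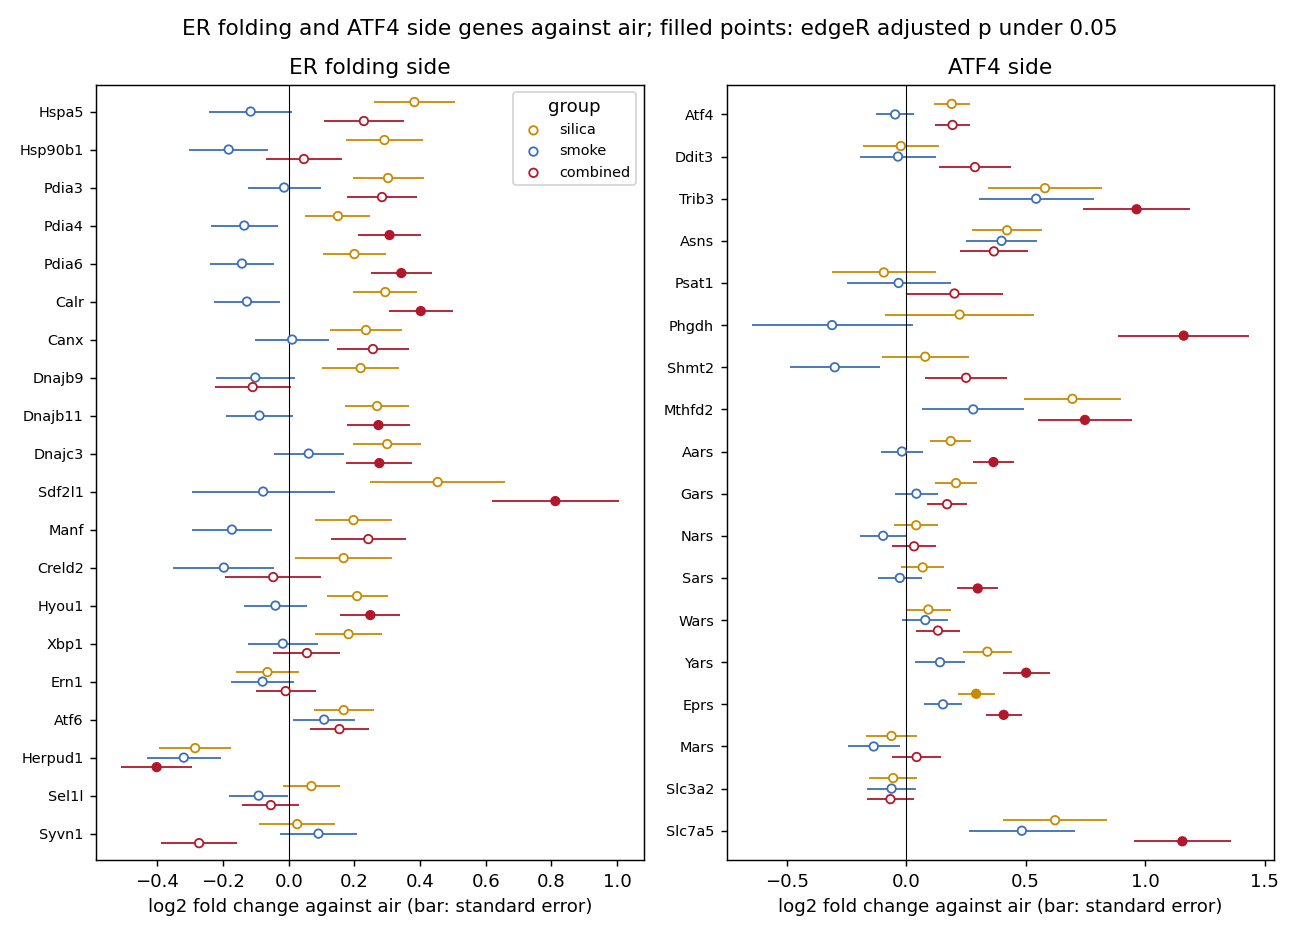
Log2 fold change against air (x axis) of the 20 ER folding genes and the 18 tested ATF4 side genes, after silica, smoke or both, from the fit to all 24 libraries. Bars are standard errors and filled points passed the adjusted p threshold. The 15 filled points to the right of 0 in the combined group and the 1 to the left (Herpud1) are the calls described in the text. The 3 exposures share the air libraries.

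Several chaperone promoters hold known ER stress elements. Promoter windows of 300 bases, from 250 before the RefSeq start of a gene to 50 after it (assembly GRCr8), were found for 33 of the 39 genes. The 6 with none in the table were Pdia3, Pdia6, Manf, Ern1, Atf6 and Gars. Both strands were searched for the ER stress response element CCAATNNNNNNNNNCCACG and its second form ATTGGNCCACG, which ATF6 and XBP1 are known to bind together with NF-Y. The first was found in 7 of 15 ER folding windows and 0 of 18 ATF4 side windows, and in 18 of 19005 protein-coding windows (0.095%). The second was found in 3 of 15 and 0 of 18, and in 13 of 19005 (0.068%). TGACGTGG, the core of the unfolded protein response element, stood in 1 ER folding window, that of Hyou1, where it overlaps the second element, and in 0.631% of all windows. The elements and the genes were both picked as known parts of the ER stress response, so these shares are not independent evidence. A match is a description of the letters and does not show binding. Each match is written as it reads on the gene's own strand, fixed letters in capitals, with its positions counted from the first transcribed base as 1 and the base before it as -1. Hspa5 holds it at -43 to -25, Hsp90b1 at -176 to -158 and -72 to -54, Calr at -232 to -214, Canx at -230 to -212, Dnajc3 at -133 to -115, Creld2 at -145 to -127 and Xbp1 at -65 to -47. The second form stands at -10 to 1 in Dnajb11, at -188 to -178 and -88 to -78 in Hyou1, and at -124 to -114 in Herpud1.
Hspa5: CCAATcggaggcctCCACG
Hsp90b1, distal: CCAATcgaaaggagCCACG
Hsp90b1, proximal: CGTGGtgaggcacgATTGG
Calr: CGTGGtcgaccctgATTGG
Canx: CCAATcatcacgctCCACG
Dnajc3: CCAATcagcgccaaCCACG
Creld2: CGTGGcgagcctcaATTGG
Xbp1: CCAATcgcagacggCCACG
Dnajb11, second form: ATTGGcCCACG
Hyou1, second form, distal: CGTGGgCCAAT
Hyou1, second form, proximal: CGTGGcCCAAT
Herpud1, second form: ATTGGgCCACG

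The whole windows of 3 of these genes are shown as examples of a gene that rose after combined exposure (Calr), one that was not called (Hspa5, the best-known target of the element) and one that fell (Herpud1). Capitals mark the ER stress response elements and, in Herpud1, also the C/EBP-ATF response element TTgCATCA at -184 to -177. Hspa5 lies at chr3:38452766-38453065 (+ strand), Calr at chr19:40213117-40213416 (+ strand) and Herpud1 at chr19:10614658-10614957 (- strand).
Hspa5: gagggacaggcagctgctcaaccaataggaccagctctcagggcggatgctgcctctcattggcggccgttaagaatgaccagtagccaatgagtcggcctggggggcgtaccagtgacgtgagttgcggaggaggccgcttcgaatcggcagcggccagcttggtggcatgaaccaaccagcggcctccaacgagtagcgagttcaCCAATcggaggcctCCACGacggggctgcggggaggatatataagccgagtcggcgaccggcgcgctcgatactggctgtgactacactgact
Calr: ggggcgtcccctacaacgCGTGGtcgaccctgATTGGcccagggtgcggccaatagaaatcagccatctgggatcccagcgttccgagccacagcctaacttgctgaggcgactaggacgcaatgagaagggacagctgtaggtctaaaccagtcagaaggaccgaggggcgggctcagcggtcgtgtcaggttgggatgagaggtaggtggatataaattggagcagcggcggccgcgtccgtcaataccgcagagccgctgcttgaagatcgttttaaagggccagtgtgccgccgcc
Herpud1: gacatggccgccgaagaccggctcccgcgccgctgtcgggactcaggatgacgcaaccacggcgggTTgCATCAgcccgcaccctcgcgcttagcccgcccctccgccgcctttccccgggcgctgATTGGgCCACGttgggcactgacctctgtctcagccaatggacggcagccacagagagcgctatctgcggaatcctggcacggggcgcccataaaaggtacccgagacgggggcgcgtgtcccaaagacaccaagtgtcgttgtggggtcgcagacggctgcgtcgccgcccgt

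Of the 10 ER folding genes with either element, combined exposure raised 4 (Calr, Dnajc3, Dnajb11, Hyou1), lowered 1 (Herpud1) and left 5 not called (Hspa5, Hsp90b1, Canx, Creld2, Xbp1), beside 11.6% higher and 10.8% lower of all tested genes. A further 21 genes outside the list had an element in their window and 14 of them were tested. Among those, 3 were higher and 0 lower: Zfand2a by 1.23 ± 0.16, Derl3 by 0.89 ± 0.32 and Rcl1 by 0.49 ± 0.17.

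Among the 14 chaperones and folding enzymes, 7 were higher and 0 lower in the combined group than in air. Of all tested genes 11.6% were higher and 10.8% lower. Without silica 1, smoke 1 and smoke 2 the count was 10 higher and 0 lower, beside 12.1% and 13.5% of all genes then tested. In the main fit 12 of the 14 changes were above 0, with a median change of 0.26. The 7 were Sdf2l1, Calr, Pdia6, Pdia4, Dnajc3, Dnajb11 and Hyou1. Sdf2l1, an ER protein of the chaperone complex around Hspa5, ran from 11.7 to 21.3 CPM in air (median 15.3) and from 22.6 to 33.0 in the combined group (26.0). Silica gave 11.4 to 32.3 CPM (22.3) and smoke 8.85 to 22.5 (14.3). Every combined library stood above every air and every measured smoke library. Sdf2l1 was higher by 0.81 ± 0.19 against air (edgeR adjusted p = 0.00282) and by 0.89 ± 0.21 against smoke (0.0062).

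Calr encodes calreticulin, the calcium-binding lectin chaperone of glycoproteins. Its level was 497 to 667 CPM in air (median 566), 569 to 774 after silica (717), 458 to 611 after smoke (552) and 653 to 845 after both (770). The lowest combined library reached just below the highest air library, and all stood above the smoke libraries. The change was 0.40 ± 0.10 against air (edgeR adjusted p = 0.00304) and 0.53 ± 0.10 against smoke (0.00133). The related membrane chaperone Canx (calnexin) ran from 601 to 681 CPM in air and from 696 to 862 in the combined group, with no overlap, yet its change of 0.26 ± 0.11 was not called (0.0896).

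Protein disulfide isomerases join and reshuffle the disulfide bonds of folding proteins. Pdia6 stood at 153 to 201 CPM in air (median 178), 153 to 236 after silica (214), 133 to 186 after smoke (161) and 198 to 245 after both (224). It was higher after both by 0.34 ± 0.09 against air (edgeR adjusted p = 0.00814) and by 0.49 ± 0.10 against smoke (0.00235). Pdia4 stood at 139 to 173 CPM in air (147), 151 to 222 after silica (173), 122 to 162 after smoke (143) and 165 to 211 after both (196). Combined libraries of both genes overlapped the air range only at its top and stood wholly above smoke. Pdia4 changed by 0.31 ± 0.10 against air (0.0214) and by 0.44 ± 0.10 against smoke (0.00538), and Pdia3 by 0.28 ± 0.11 against air, which was not called (0.0545).

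The remaining called chaperone genes moved by less and their calls were less stable. Dnajb11, an Hsp40-type co-chaperone of Hspa5, ran from 51.7 to 64.1 CPM in air (median 54.3), 51.6 to 78.1 after silica (68.5), 45.7 to 56.9 after smoke (54.8) and 59.1 to 75.4 after both (68.5). Its combined libraries all stood above the smoke libraries, and the change was 0.27 ± 0.10 against air (edgeR adjusted p = 0.0391) and 0.36 ± 0.10 against smoke (0.0196). Hyou1, a large Hsp70-like chaperone, ran from 161 to 204 CPM in air (182), 170 to 219 after silica (218), 153 to 226 after smoke (168) and 195 to 225 after both (218). The ranges of all 4 groups overlapped, with medians of 218 both after silica and after both exposures. The change in the combined group was 0.25 ± 0.09 against air (0.0485) and 0.29 ± 0.10 against smoke (0.0449). Dnajc3, a co-chaperone that also restrains PERK, ran from 66.8 to 93.9 CPM in air and from 84.2 to 105 after both, a change of 0.28 ± 0.10 (0.0476). Manf, a secreted ER stress factor, ran from 50.7 to 66.6 CPM in air (56.2), 39.5 to 76.3 after silica (67.6), 41.7 to 67.4 after smoke (47.8) and 55.4 to 74.3 after both (67.8). All 4 groups overlapped in Manf, which was called against smoke (0.42 ± 0.12, 0.0243) and not against air (0.24 ± 0.11, 0.127).

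Hspa5, the central Hsp70 chaperone of the ER and the usual marker of the unfolded protein response, was not called in any comparison. Its level was 413 to 604 CPM in air (median 458), 434 to 771 after silica (640), 384 to 544 after smoke (434) and 522 to 617 after both (544). The combined libraries were tightly grouped and overlapped air only through air's highest library. The change was 0.23 ± 0.12 against air (edgeR adjusted p = 0.182), 0.35 ± 0.13 against smoke (0.0692) and, for silica against air, 0.38 ± 0.12 (0.078). Hsp90b1, the ER Hsp90, changed by 0.05 ± 0.12 after both (0.835), Creld2 by -0.05 ± 0.15 (0.872), and Dnajb9, an XBP1-dependent co-chaperone, by -0.11 ± 0.12 (0.545).

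Of the 6 sensor and degradation genes, 0 were higher and 1 was lower after both, with a median change of -0.03, beside 11.6% higher and 10.8% lower of all genes. Whether they differed from the chaperones was not tested. Herpud1, an ER membrane protein of the degradation complex, ran from 77.8 to 106 CPM in air (median 86.5), 25.1 to 78.7 after silica (74.3), 63.1 to 74.4 after smoke (72.1) and 58.1 to 75.8 after both (66.9). Every combined library and every measured smoke library stood below every air library. It fell by 0.40 ± 0.11 on the log2 scale after both (edgeR adjusted p = 0.00717), while its changes of -0.32 ± 0.11 after smoke (0.361) and -0.29 ± 0.11 after silica (0.145) were not called. Syvn1, the ubiquitin ligase of the same complex, ran from 30.6 to 44.9 CPM in air, 36.4 to 53.1 after smoke and 25.2 to 37.9 after both. It was lower in the combined group than after smoke (-0.36 ± 0.12, 0.0462) but not called against air (-0.27 ± 0.12, 0.088). Sel1l, its adaptor, changed by -0.05 ± 0.09 (0.711).

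Xbp1 messenger RNA ran from 175 to 232 CPM in air (median 208), 179 to 259 after silica (242), 191 to 238 after smoke (197) and 200 to 233 after both (214). These ranges overlapped throughout, and the change after both was 0.06 ± 0.10 (edgeR adjusted p = 0.758). The sensor genes Ern1 (-0.01 ± 0.09, 0.972) and Atf6 (0.15 ± 0.09, 0.228) were not called either. Counts per gene do not separate the spliced from the unspliced Xbp1 message, and sensor activity was not measured.

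Over the ER folding side, groups that did not overlap between combined and air were found for 2 genes upward (Sdf2l1, Canx) and 1 downward (Herpud1) of 20. On the ATF4 side they were found for 6 upward (Atf4, Phgdh, Aars, Yars, Eprs, Slc7a5) and 0 downward of 18. Among all tested genes 6.37% had every combined library above every air library and 4.93% had every one below.

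**Figure D2:**
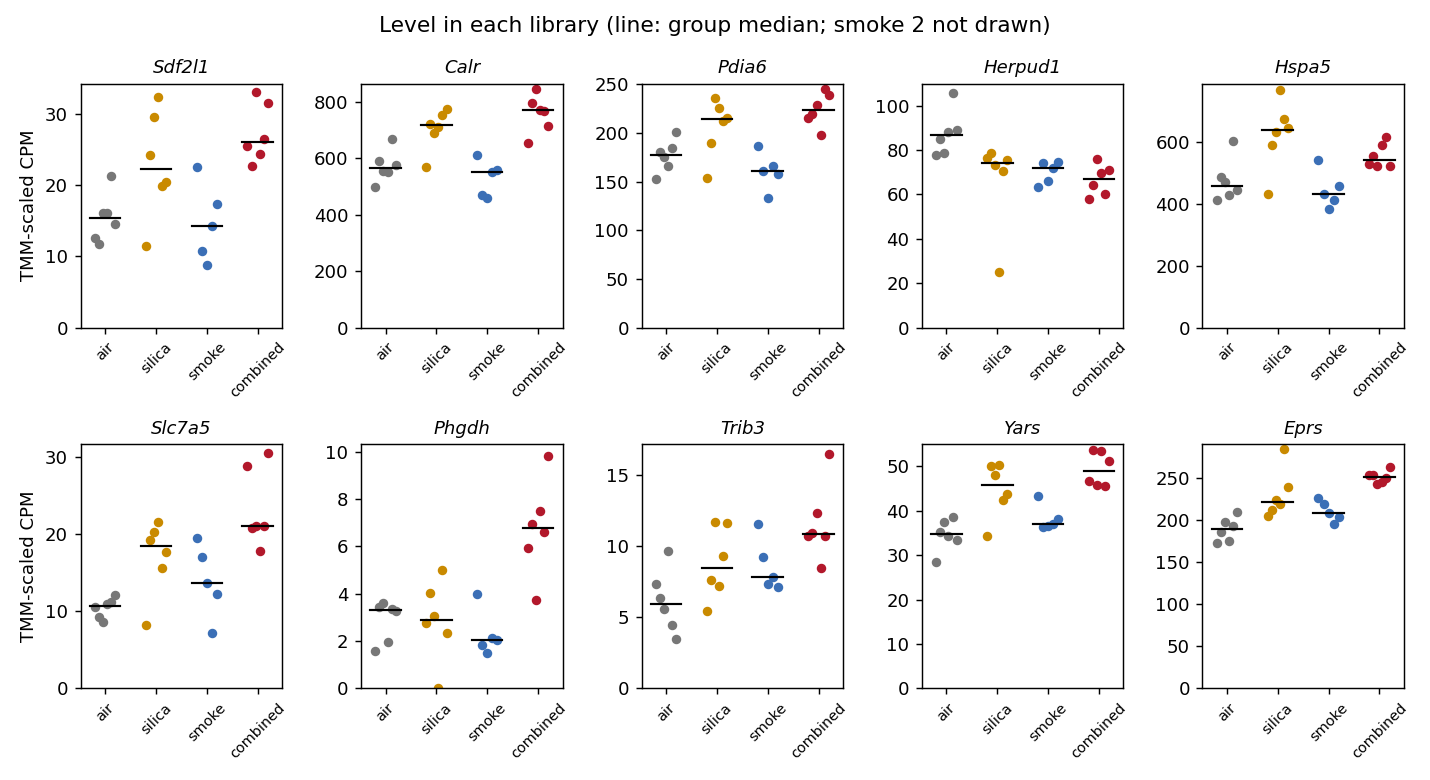
Level in TMM-scaled CPM (y axis, from 0) of 5 ER folding genes (upper row) and 5 ATF4 side genes (lower row) in each library, by group. Points are libraries, lines are group medians and smoke 2 is not drawn. Combined libraries of Sdf2l1, Slc7a5, Phgdh, Yars and Eprs stand above all air libraries, those of Herpud1 stand below, and silica 4 stands apart in Herpud1 at 25.1 CPM.

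ATF4 binds C/EBP-ATF response elements, searched here as TGATGNAA on both strands. The letters were found in 6 of 18 ATF4 side windows (Trib3, Chac1, Aars, Nars, Yars, Mars), in 1 of 15 ER folding windows (Herpud1) and in 633 of 19005 protein-coding windows (3.331%). Here too the element and the genes were picked by what is known of ATF4, so the shares are not independent evidence. Aars holds them at -112 to -105 and at 10 to 17, Trib3 at -21 to -14, Chac1 at -167 to -160, Nars at -14 to -7, Yars at 39 to 46 and Mars at -17 to -10. The windows of Aars (chr19:55908232-55908531, + strand, named Aars1 in RefSeq) and Trib3 (chr3:161275484-161275783, - strand) are shown because both genes rose after combined exposure, with the matches in capitals as they read on the gene's strand.
Aars: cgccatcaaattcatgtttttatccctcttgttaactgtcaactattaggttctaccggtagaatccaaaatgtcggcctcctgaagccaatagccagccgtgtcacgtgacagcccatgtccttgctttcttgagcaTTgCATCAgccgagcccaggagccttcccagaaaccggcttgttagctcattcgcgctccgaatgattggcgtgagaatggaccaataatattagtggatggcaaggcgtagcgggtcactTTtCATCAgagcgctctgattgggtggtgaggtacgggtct
Trib3: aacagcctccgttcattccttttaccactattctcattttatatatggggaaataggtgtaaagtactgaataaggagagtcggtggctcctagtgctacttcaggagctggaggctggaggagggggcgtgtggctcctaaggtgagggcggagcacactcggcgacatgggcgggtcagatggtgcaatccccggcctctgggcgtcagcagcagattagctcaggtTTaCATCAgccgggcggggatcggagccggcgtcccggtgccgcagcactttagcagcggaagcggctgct

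Of the 6 genes with the letters, Aars, Yars and Trib3 were higher after both, beside 11.6% of all tested genes. Nars (0.03 ± 0.09) and Mars (0.04 ± 0.10, edgeR adjusted p = 0.816) were not called, and Chac1 was not tested. Slc7a5, Eprs, Phgdh, Sars and Mthfd2 rose without the letters in this window, which says nothing about sites elsewhere.

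Of the 3 tested transcription factor and feedback genes, Trib3 rose and the 2 others were not called against air, beside 11.6% higher and 10.8% lower of all tested genes. Without silica 1, smoke 1 and smoke 2, 2 of the 3 were higher, beside 12.1% of all genes then tested. Atf4 itself ran from 161 to 186 CPM in air (median 179), 174 to 225 after silica (209), 158 to 201 after smoke (164) and 195 to 210 after both (201). Every combined library stood above every air library by a small margin. The change was 0.19 ± 0.07 against air (edgeR adjusted p = 0.0588, not called) and 0.24 ± 0.08 against smoke (0.0414). Trib3, a pseudokinase that dampens ATF4, ran from 3.48 to 9.68 CPM in air (5.97), 5.48 to 11.7 after silica (8.47), 7.13 to 11.6 after smoke (7.85) and 8.45 to 16.5 after both (10.8). Its groups overlapped at the edges, and it was higher after both by 0.96 ± 0.22 (0.00225). Ddit3, which encodes the stress factor CHOP, ran from 12.5 to 20.01 CPM in air (16.2), 7.18 to 19.998 after silica (15.5), 13.2 to 17.4 after smoke (16.4) and 15.3 to 26.3 after both (19.8), and its change of 0.29 ± 0.15 was not called (0.173).

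The amino acid and one-carbon enzymes differed among themselves: 2 of 5 were called higher after both, beside 11.6% of all tested genes. All 5 changes were above 0. Phgdh, the first enzyme of serine synthesis, was a low gene at 1.58 to 3.62 CPM in air (median 3.32), 0 to 4.98 after silica (2.91), 1.47 to 3.97 after smoke (2.04) and 3.75 to 9.81 after both (6.78). All combined libraries stood above all air libraries, and the silica library at 0 was the shallow silica 4. It was higher after both by 1.16 ± 0.27 against air (edgeR adjusted p = 0.00257) and by 1.47 ± 0.31 against smoke (0.00301). Its changes after silica (0.22 ± 0.31, 0.77) and after smoke (-0.31 ± 0.34, 0.874) were not called. Mthfd2, the mitochondrial folate enzyme of one-carbon metabolism, ran from 4.94 to 10.3 CPM in air (8.73), 10.8 to 14.8 after silica (13.1), 7.74 to 12.2 after smoke (9.62) and 9.39 to 16.1 after both (14.2). It was higher after both by 0.75 ± 0.20 (0.00618). All 6 silica libraries stood above the air libraries, but the lowest, 10.8 CPM, is the level of only 3 counts in the shallow silica 4. The silica change of 0.70 ± 0.20 narrowly missed the threshold (0.0535).

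Asns, which makes asparagine and is a standard ATF4 target, ran from 12.7 to 23.1 CPM in air (median 19.9), 21.0 to 35.9 after silica (24.6), 18.4 to 30.1 after smoke (25.5) and 21.7 to 26.3 after both (24.6). The 3 exposed groups overlapped each other and air. Its changes against air were close to each other at 0.42 ± 0.15 after silica (edgeR adjusted p = 0.104), 0.40 ± 0.15 after smoke (0.414) and 0.37 ± 0.14 after both (0.0604), and none was called. Psat1, the next serine enzyme, changed by 0.20 ± 0.20 after both (0.52). Shmt2, which turns serine into glycine in mitochondria, changed by 0.25 ± 0.17 against air (0.32) and by 0.55 ± 0.19 against smoke (0.0541).

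Of the 8 cytosolic tRNA synthetases, 4 were higher and 0 lower after both, beside 11.6% higher and 10.8% lower of all tested genes. All 8 changes were above 0, with a median of 0.24. Eprs, the glutamyl-prolyl enzyme, ran from 173 to 209 CPM in air (median 190), 205 to 285 after silica (222), 196 to 226 after smoke (208) and 243 to 264 after both (252). Yars, the tyrosyl enzyme, ran from 28.4 to 38.5 CPM in air (34.7), 34.3 to 50.2 after silica (45.8), 36.3 to 43.3 after smoke (37.1) and 45.5 to 53.7 after both (48.9). Aars, the alanyl enzyme, ran from 93.0 to 111 CPM in air (98.4), 78.9 to 134 after silica (114), 91.2 to 110 after smoke (97.0) and 119 to 139 after both (129). In all 3 genes every combined library stood above every air library and every measured smoke library. Against air the changes were 0.41 ± 0.08 for Eprs (edgeR adjusted p = 0.000285), 0.50 ± 0.10 for Yars (0.000469) and 0.37 ± 0.08 for Aars (0.0021).

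Sars, the seryl enzyme, ran from 61.3 to 86.2 CPM in air (median 75.8), 61.2 to 104 after silica (81.1), 68.2 to 79.0 after smoke (73.9) and 83.6 to 98.3 after both (92.9), and was higher by 0.30 ± 0.09 against air (edgeR adjusted p = 0.0125). Its combined libraries overlapped air at the edge and not smoke. Gars (0.17 ± 0.08, 0.144) and Wars (0.13 ± 0.09, 0.324), the glycyl and tryptophanyl enzymes, were not called.

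Slc7a5, the light chain of the large neutral amino acid transporter LAT1, had the smallest adjusted p of the 38 tested genes in the combined group against air. It ran from 8.56 to 12.1 CPM in air (median 10.7), 8.22 to 21.5 after silica (18.5), 7.14 to 19.5 after smoke (13.6) and 17.8 to 30.5 after both (21.0). The lowest combined library stood above the highest air library, while silica and smoke overlapped both. Slc7a5 was higher by 1.16 ± 0.20 against air (edgeR adjusted p = 0.000151) and by 0.67 ± 0.21 against smoke (0.0314). Its heavy chain Slc3a2, which other transporters also use, ran from 146 to 242 CPM in air and from 182 to 233 after both, a change of -0.07 ± 0.10 (0.752).

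**Figure D3:**
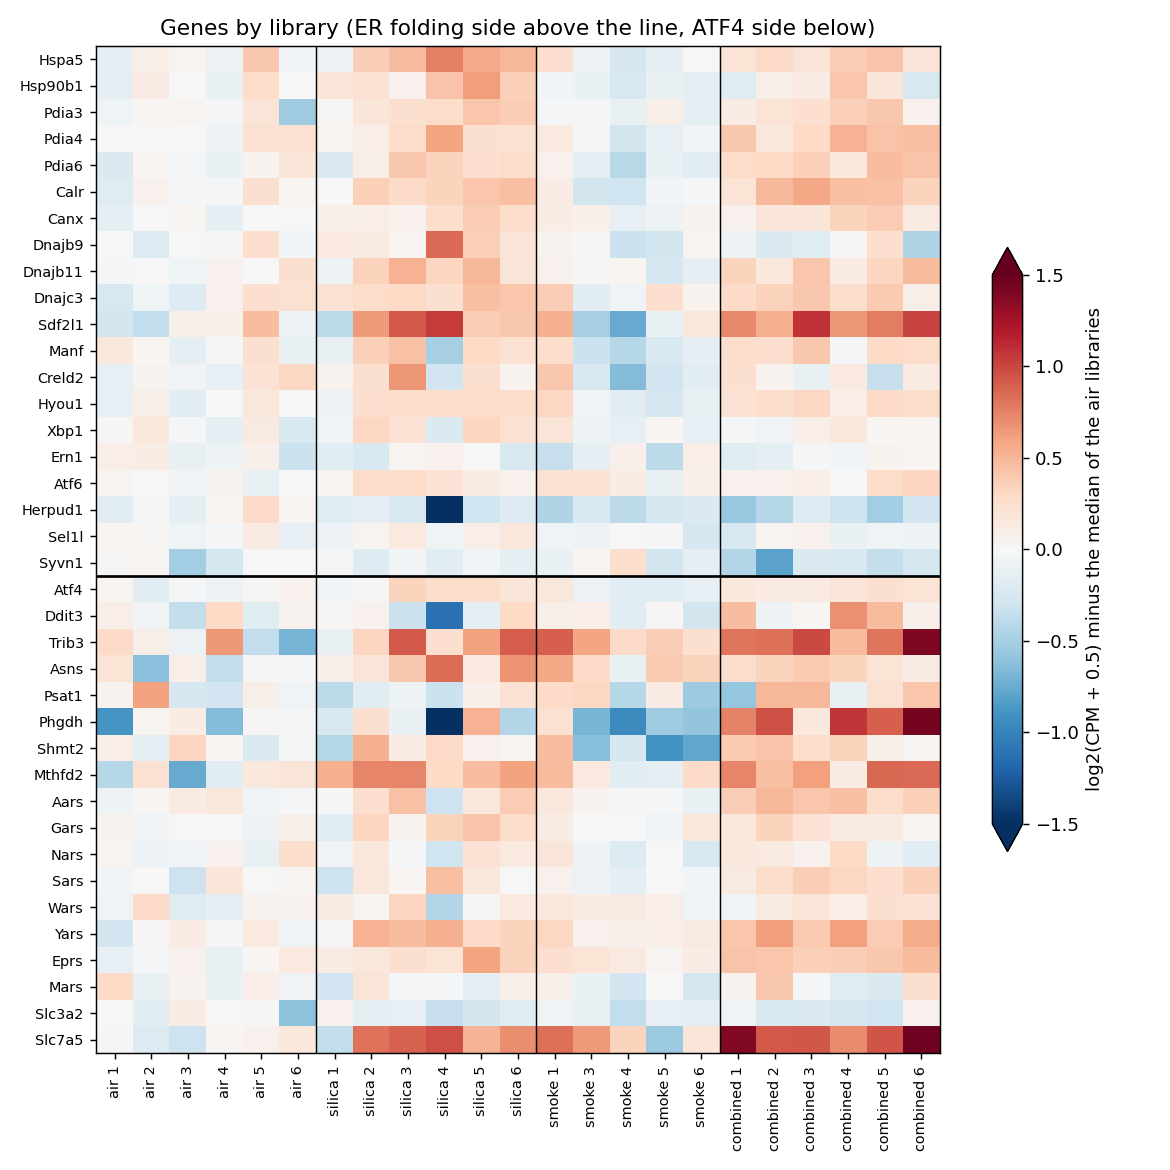
Level of the 38 tested genes (rows) in 23 libraries (columns), as log2(CPM + 0.5) minus the median of the 6 air libraries, red above and blue below. The colour scale ends at 1.5 in either direction. The 6 combined columns are red in most chaperone, synthetase and Slc7a5 rows and blue for Herpud1 and Syvn1. Silica 1 is below the other silica columns in Slc7a5, Sdf2l1 and Yars, and smoke 1 is redder than the other smoke columns in Trib3, Slc7a5 and Yars.

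Calls against air did not all rest on equally firm ground. In the combined group, Aars, Calr, Eprs, Herpud1, Pdia6, Phgdh, Sdf2l1, Slc7a5, Trib3 and Yars stayed called in each of the 30 alternative fits. DESeq2 in place of edgeR did not call Pdia4 (adjusted p = 0.0852), Dnajb11 (0.255), Dnajc3 (0.206), Hyou1 (0.154), Mthfd2 (0.231) and Sars (0.0829), which left 3 ER folding and 6 ATF4 side genes higher. Among all 13322 genes tested, DESeq2 called 856 higher, against 1546 in the main fit. Pdia4 was also lost without air 4 (0.0535). Dnajb11 was lost without air 1 to 5 or combined 1, 3, 5 or 6 (adjusted p 0.0555 to 0.0972), and Dnajc3 when any of air 1 to 4, silica 2 and 6, smoke 6 and combined 1 to 5 was left out (0.0511 to 0.116). Hyou1 lost its call with any of these libraries left out: air 1, 3, 4 and 6, silica 2 and 6, smoke 3, 4 and 6, and combined 1, 2, 3, 5 and 6 (0.0505 to 0.114). Among genes not called, Atf4 passed without air 6, silica 1, silica 3, smoke 1 or smoke 2 (0.0371 to 0.0498), Pdia3 without air 5, silica 1 or smoke 2 (0.0221 to 0.0402), Canx without smoke 2 (0.00792), Asns without air 1 (0.0411) and Syvn1, lower, without air 3 (0.0281). The ER folding count of 7 became 3 without air 4, 4 without air 1, air 3, combined 1, combined 3 or combined 5, and 9 without smoke 2. Among all genes tested, 1388 of 13299 were higher without air 4 and 1682 of 13572 without smoke 2. They numbered 1314 to 1407 in the fits that gave a count of 4.

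The next comparison asks what was added to smoke by silica. Of 20 ER folding genes 7 were higher and 1 lower in the combined group than after smoke (median 0.24), and of 18 ATF4 side genes 7 were higher and 0 lower (median 0.29), beside 7.34% higher and 5.57% lower of all genes. Without silica 1, smoke 1 and smoke 2, 9 and 9 were higher and 1 and 0 lower, beside 9.9% and 10.2% of all genes. The comparison shares its combined libraries with the one against air, so the 2 are not independent. Higher were Calr, Pdia4, Pdia6, Dnajb11, Sdf2l1, Manf, Hyou1, Atf4, Phgdh, Aars, Sars, Yars, Eprs and Slc7a5, and Syvn1 was lower. For the synthetases the changes were 0.38 ± 0.09 for Aars (edgeR adjusted p = 0.00557), 0.36 ± 0.10 for Yars (0.0213), 0.33 ± 0.09 for Sars (0.0194) and 0.25 ± 0.08 for Eprs (0.0327). Trib3 (0.42 ± 0.23, 0.231) and Mthfd2 (0.47 ± 0.21, 0.136) were not called here.

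Stability was lower in that comparison. Aars, Calr, Pdia4, Pdia6 and Sdf2l1 stayed called in all 30 alternatives, and Phgdh in the 29 that gave an adjusted p. DESeq2 called 4 ER folding genes and 1 ATF4 side gene (Aars) higher and 0 lower, and did not call Slc7a5 (0.295), Yars (0.177), Sars (0.1), Eprs (0.0813), Atf4 (0.121), Manf (0.115), Dnajb11 (0.146), Hyou1 (0.129) and Syvn1 (0.212). Slc7a5 was lost without smoke 4, 5 or 6 or combined 1 or 6 (0.0727 to 0.0829), Yars without smoke 3 or 4 (0.0607 to 0.0608), Sars without smoke 3 or 4 (0.0501 to 0.0643) and Eprs without smoke 3 to 6 or combined 1, 2 or 6 (0.0509 to 0.0807). Atf4 was lost without any 1 of smoke 3 to 6 or of the combined libraries (0.0505 to 0.113), Manf without smoke 3, 4 or 5 or combined 3 (0.0506 to 0.0935) and Dnajb11 without smoke 5 or 6 or combined 6 (0.0507 to 0.0528). Hyou1 lost its call with any of air 4, silica 2 and 6, smoke 3 to 6, and combined 1, 2, 3, 5 and 6 left out (0.0502 to 0.123). Syvn1 did so for air 1, 2 and 5, silica 2 to 6, smoke 3, 4 and 6, and combined 1, 2, 5 and 6 (0.0513 to 0.185). Conversely Shmt2 passed without air 6, silica 1, silica 2, smoke 1 or smoke 2 (0.000873 to 0.0482), Hspa5 without silica 1 or smoke 1 (0.0213 to 0.0356) and Pdia3 without air 6 or smoke 2 (0.0284 to 0.0487). The ATF4 side count of 7 was 2 without smoke 4, 3 without smoke 3 and 4 without smoke 5, smoke 6, combined 1 or combined 6, and the ER folding count of 7 was 4 without smoke 5. Calls over all genes fell in these fits too. Against smoke 978 of 13322 genes were higher in the main fit and 445 under DESeq2. Without smoke 4 they numbered 586 of 13313 and without smoke 3 581 of 13306. Without smoke 5, smoke 6, combined 1 or combined 6 they numbered 773, 695, 872 and 715.

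After silica alone, 1 gene passed: Eprs rose by 0.29 ± 0.08 (edgeR adjusted p = 0.033). The ER folding side had 0 of 20 called in either direction and the ATF4 side 1 of 18 higher and 0 lower, beside 2.15% higher and 1.01% lower of all genes. At an unadjusted p under 0.05, 10 ER folding genes stood higher and 1 lower and 9 ATF4 side genes stood higher, where 18.2% of all tested genes lay below that p. All 14 chaperone changes were above 0 (median 0.25), including Calr at 0.29 ± 0.10 (0.0883), Dnajc3 at 0.30 ± 0.10 (0.103), Dnajb11 at 0.27 ± 0.10 (0.127), Pdia3 at 0.30 ± 0.11 (0.116), Pdia6 at 0.20 ± 0.10 (0.261) and Sdf2l1 at 0.45 ± 0.21 (0.23). On the ATF4 side Slc7a5 stood at 0.62 ± 0.22 (0.108), Yars at 0.34 ± 0.10 (0.0611), Atf4 at 0.19 ± 0.08 (0.163) and Trib3 at 0.58 ± 0.24 (0.18).

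That count turned on the library labelled silica 1. Silica 1 and smoke 1 were singled out by Mmp12, which itself rose after silica (3.00, edgeR adjusted p = 0.0033). Higher counts without them are therefore not independent support. Among all genes tested, 287 were higher after silica in the main fit and 716 without silica 1. Without silica 1 alone, 6 genes on each side were higher, and without silica 1, smoke 1 and smoke 2 there were 9 ER folding genes and 7 ATF4 side genes higher and 0 lower, beside 5.96% higher and 5.85% lower of all genes. The 9 were Hspa5, Pdia3, Pdia6, Calr, Canx, Dnajb11, Dnajc3, Sdf2l1 and Hyou1, and the 7 were Atf4, Asns, Mthfd2, Gars, Yars, Eprs and Slc7a5. Single libraries other than silica 1 also moved the ER folding count from 0 to 2 (air 5, smoke 2, each with Hspa5 and Calr) and the ATF4 side count from 1 to 3 (air 5, smoke 1, smoke 2), to 2 (air 6) or to 0 (air 1, air 4, silica 3, silica 5, silica 6). Among all genes tested, 365 to 420 were higher in the fits with 3 ATF4 side genes, 222 without air 6 and 111 to 221 in those with 0. Eprs was lost without air 1, 2 or 4 or silica 3, 5 or 6 (adjusted p 0.0532 to 0.14) and under DESeq2 (0.0811). DESeq2 called 0 on either side, and limma voom with quality weights called 4 ER folding and 5 ATF4 side genes higher. Among all 13322 genes tested, DESeq2 called 148 higher and limma voom 577, against 287 in the main fit. The lowest weights in limma voom went to smoke 2 (0.251), air 6 (0.269) and silica 1 (0.520).

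After smoke alone, edgeR called 0 of 20 ER folding genes and 0 of 18 ATF4 side genes, beside 0.0976% higher and 0.0525% lower of all genes. DESeq2, limma voom and the fit without silica 1, smoke 1 and smoke 2 also called 0. At an unadjusted p under 0.05, 0 ER folding genes stood higher and 1 lower (Herpud1) and 3 ATF4 side genes stood higher (Asns, Trib3, Slc7a5), where 8.29% of all tested genes lay below that p. The median change was -0.09 on the ER folding side, where 4 of 20 changes were above 0, and -0.02 on the ATF4 side. Slc7a5 changed by 0.48 ± 0.22 (adjusted p = 0.549) and Trib3 by 0.54 ± 0.24 (0.533).

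Between the combined group and silica alone edgeR called 0 genes on either side, beside 0.12% higher and 0.128% lower of all genes. DESeq2, limma voom and the fit without silica 1, smoke 1 and smoke 2 called 0 as well. At an unadjusted p under 0.05, 0 ER folding genes stood higher and 3 lower and 4 ATF4 side genes stood higher and 0 lower, where 12.9% of all genes lay below that p. The largest ATF4 side changes were 0.94 ± 0.29 for Phgdh (adjusted p = 0.158) and 0.53 ± 0.21 for Slc7a5 (0.258), and on the ER folding side Sdf2l1 stood at 0.36 ± 0.20 (0.453) and Dnajb9 at -0.33 ± 0.12 (0.237).

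The interaction asks whether the log2 change after both differed from the sum of the changes after each. edgeR called 0 of 13322 genes (0%), DESeq2, limma voom and the fit without silica 1, smoke 1 and smoke 2 called 0 of the genes described here, and at an unadjusted p under 0.05 there were 3 ER folding genes and 2 ATF4 side genes, where 7.33% of all genes lay below that p. Phgdh had the smallest adjusted p of the 38 genes (1.25 ± 0.44, 0.551). So a gene called in the combined group and not in silica or smoke alone was not shown to respond differently to the pair than to the sum of its parts.

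Other genes of the same pathways, from lists drawn up with earlier results of these data known, were counted in the same way. After both against air, 11.6% of all tested genes were higher and 10.8% lower. Of 32 other ER folding, translocation and degradation genes 8 were higher and 0 lower after both against air (25.0% higher, median 0.14). They included P4hb, the main protein disulfide isomerase, at 0.51 ± 0.10 (edgeR adjusted p = 0.000465), the translocation channel subunit Sec61b at 0.61 ± 0.14 (0.00212), the thioredoxin-like Txndc5 at 0.41 ± 0.09 (0.00203) and the prolyl isomerase Fkbp2 at 0.42 ± 0.15 (0.0362). Of 21 other ATF4 and stress kinase genes 7 were higher and 1 lower (median 0.22). The cystine importer Slc7a11 rose most, by 2.28 ± 0.36 (4.5e-05), ahead of the alanine transaminase Gpt2 at 0.74 ± 0.20 (0.00799), the cationic amino acid transporter Slc7a1 at 0.62 ± 0.18 (0.0109) and the glutamine transporter Slc1a5 at 0.61 ± 0.15 (0.0038), and the 1 lower gene, Vldlr, a lipoprotein receptor, fell by 0.54 ± 0.12 (0.0018).

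Of 12 other cytosolic tRNA synthetases 3 were higher after both: Tars by 0.39 ± 0.10 (edgeR adjusted p = 0.00433), Qars by 0.36 ± 0.07 (0.000311) and Farsb by 0.29 ± 0.10 (0.0391), and all 12 changes were above 0 (median 0.14). Of the 16 tested mitochondrial tRNA synthetases 0 were called (median -0.03, 1 higher and 1 lower at an unadjusted p under 0.05). These counts stand beside 11.6% higher and 10.8% lower of all tested genes. The difference between cytosolic and mitochondrial enzymes was not tested. Against smoke the counts were 7 higher of 32 other ER genes, 3 higher and 2 lower of 21 ATF4 and kinase genes, 2 higher of 12 cytosolic and 1 lower of 16 mitochondrial synthetases. Of all tested genes 7.34% were higher and 5.57% lower against smoke. After silica 0 of the 32, 1 of the 21 (Slc7a11, 1.65 ± 0.39, 0.0193) and 1 of the 12 (Farsb, 0.44 ± 0.10, 0.0183) were higher, beside 2.15% of all tested genes.

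**Figure D4:**
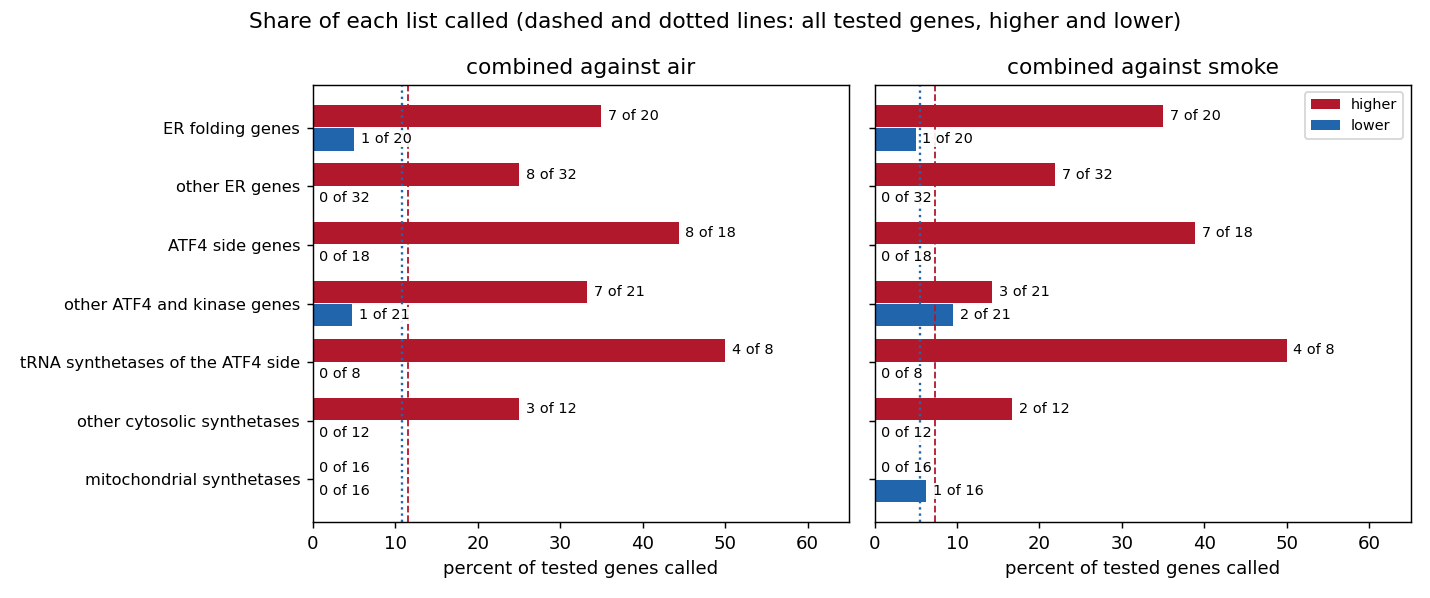
Percent of the tested genes of each list called higher (red) or lower (blue) in the combined group against air (left) and against smoke (right), with the number called of the number tested beside each bar. The dashed red and dotted blue lines mark the share of all tested genes, 11.6% higher and 10.8% lower on the left and 7.34% and 5.57% on the right. The ER folding, ATF4 side and tRNA synthetase bars reach past the red line, and the mitochondrial synthetases have none higher.

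Marker genes of several lung cell types moved in the combined group against air, where 11.6% of all tested genes were higher and 10.8% lower. Of 10 alveolar type 2 markers, each found in all 23 libraries other than smoke 2, 5 were higher and 0 lower after both against air, among them the surfactant proteins Sftpa1 (1.19 ± 0.31) and Sftpd (1.19 ± 0.19), Lamp3 (0.98 ± 0.17) and Napsa (0.87 ± 0.15). Their summed level was 14861 to 23894 CPM in air, 15191 to 28781 after silica, 16745 to 23262 after smoke and 27455 to 32143 after both, so the combined group did not overlap air or smoke. Of 10 tested macrophage markers 6 were higher and 1 lower, with a sum of 561 to 965 CPM in air, 716 to 1158 after silica, 645 to 984 after smoke and 1134 to 1252 after both. The lower macrophage marker was Cd163 (-1.33). Marco, a receptor of alveolar macrophages, was at 0 in 16 of the 23 libraries. Of 7 tested neutrophil markers 5 were higher and 0 lower, with a sum of 98.8 to 168 CPM in air, 138 to 696 after silica, 148 to 531 after smoke and 401 to 859 after both. These 3 sums were higher in every combined than in every air library.

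Plasma and B cell markers gave a mixed picture: 3 of 9 tested were higher and 0 lower after both, namely Mzb1 (1.05 ± 0.25), Derl3 (0.89 ± 0.32) and Irf4 (0.74 ± 0.18). Of the 9 changes 4 were above 0 and 5 below, with a median of -0.002. DESeq2 did not call Mzb1 (adjusted p = 0.0808), Derl3 (0.168) or Irf4 (0.0514). Mzb1 and Derl3 themselves encode ER proteins, abundant in antibody-secreting cells. The summed level of the list overlapped between groups, at 58.0 to 111 CPM in air, 64.6 to 82.3 after silica, 78.2 to 93.5 after smoke and 74.8 to 93.5 after both, and Tnfrsf17 was at 0 in 11 and Cd79a at 0 in 16 of 23 libraries. Of 9 endothelial markers 0 were higher and 5 lower, with a sum of 4002 to 5016 CPM in air, 3143 to 4919 after silica, 4071 to 4911 after smoke and 3085 to 3409 after both. Interferon-gamma is a known inducer of Wars, and of 8 tested interferon-gamma response genes 2 were higher and 0 lower. Proliferation markers had 1 of 6 higher (16.7%) and airway secretory markers 1 of 6 lower (16.7%). Of all tested genes 11.6% were higher and 10.8% lower, which is near these last shares.

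Marker lists were counted in the other comparisons too. After smoke against air 1 of 10 macrophage markers was lower (Cd163, -1.19, edgeR adjusted p = 0.0238), a call lost in 7 of 30 alternative fits. The other lists had 0 called, beside 0.0976% higher and 0.0525% lower of all tested genes. Between the combined group and silica alone 0 markers were called, beside 0.12% and 0.128%. Of all tested genes 7.34% were higher and 5.57% lower against smoke, and 2.15% and 1.01% after silica against air. Against smoke, combined exposure had 5 of 10 alveolar type 2, 6 of 10 macrophage, 2 of 7 neutrophil and 2 of 6 proliferation markers higher, 5 of 9 endothelial markers lower, and 2 higher and 1 lower of 9 plasma and B cell markers. Of that last list Mzb1 (0.99) and Irf4 (0.87) were higher and Prdm1 (-0.54) was lower. After silica against air, 2 of 10 alveolar type 2, 5 of 10 macrophage and 4 of 7 neutrophil markers were higher, and 0 of 9 plasma and B cell and 0 of 9 endothelial markers were called. At an unadjusted p under 0.05 the last 2 lists had 2 higher and 1 lower, and 0 higher and 3 lower. Without silica 1, smoke 1 and smoke 2, the fit in which 9 ER folding and 7 ATF4 side genes were higher, silica had 5 of 10 alveolar type 2, 6 of 10 macrophage and 6 of 8 neutrophil markers higher and 5 of 9 endothelial markers lower, with 0 of 9 plasma and B cell markers called. In that fit 5.96% of all tested genes were higher and 5.85% lower. The part of any cell type in the changes of the folding and ATF4 genes was not tested.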

How the data were processed

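RNA of a lung piece from 24 rats was sequenced after removal of ribosomal RNA with a kit that keeps strand, per the labels' protocols. The deposited table holds raw whole-number counts of reads for each gene and library. Per the submitters' processing notes, reads went through HTSeq 0.11.2, HISAT2 2.1.0, SAMtools 1.8, Trimmomatic 0.35, bcl2fastq 2.19 and Cufflinks, in an order that is not stated. Build, annotation and strand setting: not given in the sources used here. Overlapping genes or near-identical copies may therefore share reads. Of 30069 lines 26 repeated another line and were removed.

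Groups follow the treatment label, and library numbers follow the order of deposit and pair nothing. The counts went into edgeR 4.0.16 (R 4.3.3): filterByExpr with a minimum count of 10, TMM scaling, a quasi-likelihood fit of group means over all 24 libraries (20 residual degrees of freedom), 5 pairwise comparisons and the interaction, two-sided, Benjamini-Hochberg adjusted over all genes tested, called under 0.05. Each standard error is the size of the log2 fold change over the root of its F statistic. DESeq2 1.42.0, limma 3.58.1 voom with quality weights, RLE scaling, no filter, 12 libraries per comparison, single libraries left out and 3 libraries left out were the alternatives. The edgeR, DESeq2 and voom fits were checked on simulated counts. Between libraries of a group, chi-square ran from 1.80 to 84.6 per degree of freedom, the highest with smoke 2, so no pair agreed within sampling noise. At 3 counts a gene stands at 0.615 CPM in the deepest library and at 2.82 in the shallowest but silica 4 and smoke 2.

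The genes, 12 pathway and marker lists (164 of 165 genes found, Derl2 as LOC100910823 and Adgre1 as Emr1, Jchain without a line of that name), model and alternatives were chosen with earlier results of these data known, so no list is independent evidence. Every gene is accounted for. Levels in each group are given for the 8 called genes of each side with the smallest p, and for Hspa5, Xbp1, Atf4, Ddit3 and Asns. Levels in some groups are given for 4 genes chosen after their values were seen. These are Canx, Dnajc3 and Slc3a2 (air and combined only) and Syvn1 (all groups but silica). Of other lists up to 4 called genes with the largest changes are named. Vldlr and the genes outside the lists that share an ER element were named after their values were seen. Promoter windows come from RefSeq (GRCr8) and were used for their letters and positions only.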

Additional observations from a re-analysis of the deposited data

Results flagged for a closer look

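Of 84 sets made of 1 gene and 1 group (21 genes with values by library, 4 groups), 5 (5.95%) had 1 library far from the rest, where chance gives about 1 in 20. Herpud1 stood at 25.1 CPM in silica 4, the library with 280484 counts, against 70.3 to 78.7 CPM in the other silica libraries. Hyou1 stood at 170 CPM in silica 1 against 216 to 219. In smoke 1, Yars stood at 43.3 CPM against 36.3 to 38.2 in the other measured smoke libraries, Phgdh at 3.97 against 1.47 to 2.14 and Atf4 at 201 against 158 to 168. The last 4 sets involve silica 1 and smoke 1, the libraries whose Mmp12 level goes against their labels. The cause was not tested.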

How the results depend on the processing

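Of 32 calls, 16 held in each alternative that gave a value, 16 were lost in at least 1 and 0 reversed: limma voom and the fit without silica 1, smoke 1 and smoke 2 each kept 32, fits to 12 libraries 31, RLE scaling 27, no filter 24 and DESeq2 15. ER folding genes higher after silica (0) numbered 4 under limma voom and 9 without the 3 libraries, and 0 to 6 with single libraries left out. ATF4 side genes higher after silica (1) numbered 0 without a filter, 0 under DESeq2, 0 with 12 libraries, 5 under limma voom and 7 without the 3 libraries, and 0 to 6 with single libraries left out. For combined against air, ER folding genes higher (7) numbered 4 under RLE, 4 without a filter and 3 under DESeq2, and 3 to 9 with single libraries left out, and those lower (1) 1 to 2. Against smoke, ER folding genes higher (7) numbered 4 under DESeq2 and 4 to 8 with single libraries left out, those lower (1) 0 without a filter, 0 under DESeq2 and 0 to 1, and ATF4 side genes higher (7) 1 under DESeq2 and 2 to 8. The cause was not tested. Counts over all genes moved as well. After silica 287 were higher in the main fit, 148 under DESeq2 and 577 under limma voom. They numbered 302 without a filter, 80 with 12 libraries and 815 without the 3 libraries. After both against air they numbered 1546 in the main fit, 1449 under RLE, 1454 without a filter and 856 under DESeq2. Against smoke they numbered 978 in the main fit and 445 under DESeq2. Signs turned for 4 uncalled changes after both against air. With single libraries left out Hsp90b1 ran from -0.024 to 0.105, Mars from -0.0329 to 0.106, Creld2 from -0.093 to 0.0298 and Ern1 from -0.0679 to 0.0252, and under limma voom Creld2 stood at 0.0039. No paired analysis was possible because library numbers follow the order of deposit and pair no animals. Depth limits low genes most: Phgdh had 0 to 16 counts in the silica libraries, and smoke 2 held 0 to 7 counts of any of the 39 genes.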
